A study of Canis lupus familiaris with 25 samples.

Results

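The genes described here were the core genes of the Hedgehog pathway in canine tumors of the anal region. They were selected by gene symbol as the ligands SHH, IHH and DHH, the receptor PTCH1, the signal transducer SMO, the decoy receptor HHIP and the transcription factors GLI1, GLI2 and GLI3. Of these 9 genes, 8 had a row among the 24532 genes of the count table. IHH was not analysed here.

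Hedgehog ligands are secreted, lipid-modified proteins that bind the receptor PTCH1. Without ligand, PTCH1 keeps SMO inactive and GLI3, and to a lesser degree GLI2, is processed into a repressor of target genes. With ligand, SMO accumulates in the primary cilium and the GLI proteins become activators. PTCH1, GLI1 and HHIP are themselves transcribed in response to the signal, and in skin the pathway is known for its part in the growth of hair follicles and sebaceous glands and in basal cell carcinoma.

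RNA from formalin-fixed, paraffin-embedded (FFPE) tumors of privately owned dogs was sequenced with QuantSeq 3′, which yields 1 fragment per transcript near its 3′ end. The hepatoid gland adenoma (HGA, n = 10) is a benign tumor of modified sebaceous glands around the anus, and the apocrine gland anal sac adenocarcinoma (AGASAC) is a malignant tumor of the glands of the anal sac wall, sampled as primary tumors (n = 11) and as lymph node metastases (n = 4) of the dogs with primary tumors 1 to 4. The dogs with HGA were 8 to 14 years old (1 neutered and 4 intact males, 3 neutered and 2 intact females), and the dogs with primary AGASAC were 8 to 12.5 years old (6 neutered males, 3 neutered and 2 intact females). No treatment is given in the labels, the dogs belonged to many breeds, and each tumor is a bulk sample of a whole cross section from which adjacent tissue had been removed.

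Total counts per library were 1562347 to 6389555 in HGA, 2581453 to 4218340 in primary AGASAC and 2857541 to 3289546 in metastases. Values of single tumors are CPM, read counts relative to the library's TMM-scaled size over all 25 libraries. A gene without reads may still have had up to 3 counts, or 0.106 CPM over the 10 HGA libraries together. The summed level of 4 basal keratinocyte markers (KRT5, KRT14, TP63 and COL17A1) was 3068 to 12803 CPM in HGA and at most 32.97 CPM in any AGASAC sample, whereas 6 luminal gland markers (among them KRT8, KRT18 and KRT19) summed to at most 148 CPM in HGA and to at least 3785 CPM in AGASAC. HGA 10 stood apart from its group. Its 8 sebaceous gland markers summed to 3247 CPM, against 41685 to 119483 CPM in the other 9 HGA and 1490 to 3560 CPM in AGASAC, a sum that consists mostly of SCD, a fatty acid desaturase (2206 CPM in HGA 10 and 37005 to 116391 CPM in the other HGA). HGA 10 was also the lowest HGA for FASN and for CIDEA, a lipid droplet gene of sebaceous cells, which was at 386 CPM there and at most 0.345 CPM in AGASAC. PPARG, another gene of the list, was highest of all HGA in HGA 10, at 221 CPM. It was also the only HGA of RNA extraction batch 9 and of the second set of sequencing file names, so the fitted differences that rest on HGA are given with and without it.

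**Figure D1:**
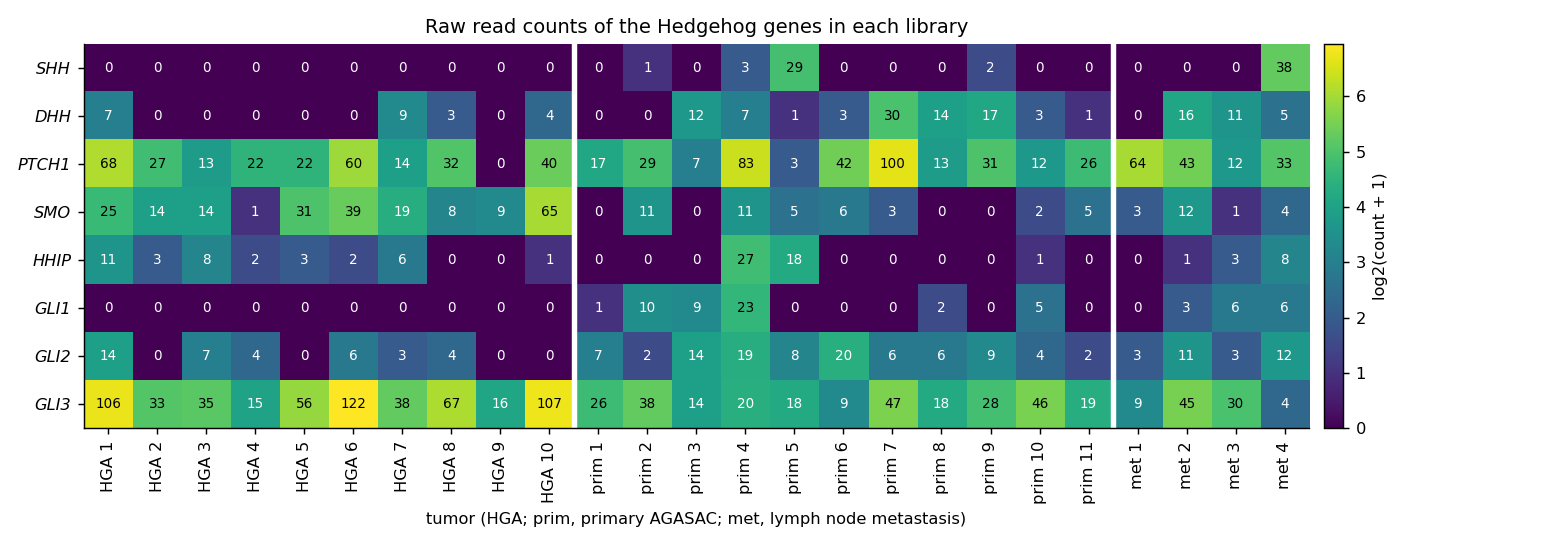
Raw read counts of the 8 Hedgehog genes (rows) in each library (columns), coloured on a log2(count + 1) scale, with white lines between HGA, primary AGASAC (prim) and metastases (met). SHH and GLI1 have no read in the 10 HGA libraries, GLI3 is read in every library, and HHIP has more than 1 read in AGASAC only in primary tumors 4 and 5 and metastases 3 and 4.

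SHH, the ligand best known from skin and its appendages, had no read in any of the 10 HGA. In primary AGASAC its level was 0 CPM at the lowest and at the median and 10.1 CPM at the highest, with reads in 4 of 11 tumors. These were 29 reads in primary tumor 5, 3 in primary tumor 4, 2 in primary tumor 9 and 1 in primary tumor 2. In the metastases it had 38 reads (12.1 CPM) in metastasis 4 and none in the other 3. The SHH signal was therefore carried by single tumors, and the HGA range lay within the AGASAC range because most AGASAC were also at 0. Against the limit that 0 counts allow over all HGA, the primary mean of 1.07 ± 3.00 CPM (SD, n = 11) made SHH at least 10.1-fold lower in HGA, but only at least 1.64-fold without primary tumor 5. With no filter on low counts, SHH had a log2FC of −4.77 (SE 1.46) for HGA over primary AGASAC and did not pass the edgeR test (adjusted p = 0.191). The adjusted p was 0.175 to 0.466 with 1 library left out in turn. For the metastases no bound could be given without metastasis 4.

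DHH, the ligand known from Schwann cells and gonads, was read in 4 of 10 HGA, 9 of 11 primary tumors and 3 of 4 metastases. Its level was 0 CPM at the lowest and the median and 2.73 CPM at the highest in HGA, and 0, 1.03 and 10.5 CPM in primary AGASAC. Metastases 1 to 4 had 0, 4.24, 3.54 and 1.60 CPM. Primary tumor 7 was the highest with 30 reads, and the groups overlapped throughout. The difference between HGA and primary AGASAC, a log2FC of −1.77 (SE 0.95) with no filter and −1.96 without HGA 10, did not pass the test (adjusted p = 1). In bulk tumor RNA, fewer cells that make a transcript and less of it per cell cannot be told apart, for this gene and for all others described here.

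PTCH1, the receptor and itself a target of the pathway, overlapped in the 3 groups and passed no test. Its lowest, median and highest values were 0, 12.2 and 17.2 CPM in HGA and 1.04, 6.32 and 35.0 CPM in primary AGASAC. Metastases 1 to 4 had 20.8, 11.4, 3.86 and 10.5 CPM. Of the 10 HGA, 9 had at least 13 reads and lay between 4.25 and 17.2 CPM, while HGA 9 had no read at all, which at its depth allows up to 1.27 CPM. The primary tumors spread more widely than the HGA, from 3 reads in primary tumor 5 to 100 reads in primary tumor 7. The log2FC was 0.03 (SE 0.54) for HGA over primary AGASAC and −0.13 (SE 0.63) for HGA over metastases, both with an adjusted p of 1, and −0.08 and −0.24 without HGA 10. The sign of the value near 0 changed with the scaling. An SE of 0.54 leaves room for differences of about the size of the log2FC threshold of 1 in either direction.

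SMO, the membrane protein that PTCH1 holds inactive, was higher in HGA in the fit with no filter on low counts. The lowest, median and highest levels were 0.615, 6.05 and 27.95 CPM in HGA and 0, 1.05 and 3.59 CPM in primary AGASAC, and metastases 1 to 4 had 0.973, 3.18, 0.322 and 1.28 CPM. Of the 10 HGA, 8 lay above the highest primary tumor, and the groups overlapped through HGA 4, which had 1 read, and HGA 8. The mean was 8.50 ± 8.07 CPM (SD, n = 10) in HGA and 1.22 ± 1.28 CPM (SD, n = 11) in primary AGASAC. SMO did not reach the count filter in the comparison with primary AGASAC and passed the test when no filter was applied, with a log2FC of 2.75 (SE 0.71, adjusted p = 0.0414).

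That call was close to the threshold, although DESeq2 gave an adjusted p of 0.00107. SMO reached the count filter in the 2 edgeR fits that left out HGA 4 or HGA 8, with adjusted p-values of 0.00652 and 0.0129. These were the 2 HGA with the lowest SMO levels, so leaving either out raises the HGA level, and these fits cannot back the call. Without HGA 10, the highest tumor for SMO, the mean of the other 9 HGA was 6.33 ± 4.54 CPM (SD), and the log2FC was 2.34 with an adjusted p of 0.129. Of the 21 fits with no filter that left out 1 library each, 7 kept the call (those without HGA 1, 4, 8 or 9 or primary tumor 2, 4 or 6), and the other 14 had an adjusted p of up to 0.129. The log2FC was 2.77, 1.86 and 1.97 within RNA extraction batches 5, 6 and 8 and 2.39 among libraries of the first set of file names, without a call in any of these smaller fits. HGA over metastases gave a log2FC of 2.53 (SE 0.84) for SMO and an adjusted p of 0.292, and 2.09 with 0.377 without HGA 10. Both comparisons share the 10 HGA.

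HHIP, a membrane protein that binds Hedgehog ligands and keeps them from PTCH1, was read in most HGA and in few primary AGASAC. In HGA it was read in 8 of 10 tumors, with 0 CPM at the lowest, 1.29 CPM at the median and 4.56 CPM at the highest. In primary AGASAC it was read in 3 of 11 tumors, with 27 reads (7.505 CPM) in primary tumor 4, 18 reads (6.25 CPM) in primary tumor 5 and 1 read in primary tumor 10. Metastases 1 to 4 had 0, 1, 3 and 8 reads. The means were nearly equal, at 1.34 ± 1.35 CPM (SD, n = 10) in HGA and 1.28 ± 2.78 CPM (SD, n = 11) in primary AGASAC, where the mean was 0.657 CPM without primary tumor 4. With no filter, HHIP gave an adjusted p of 1 and a log2FC of 0.00 (SE 0.80), whose sign changed with the scaling and which was 0.15 without HGA 10.

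**Figure D2:**
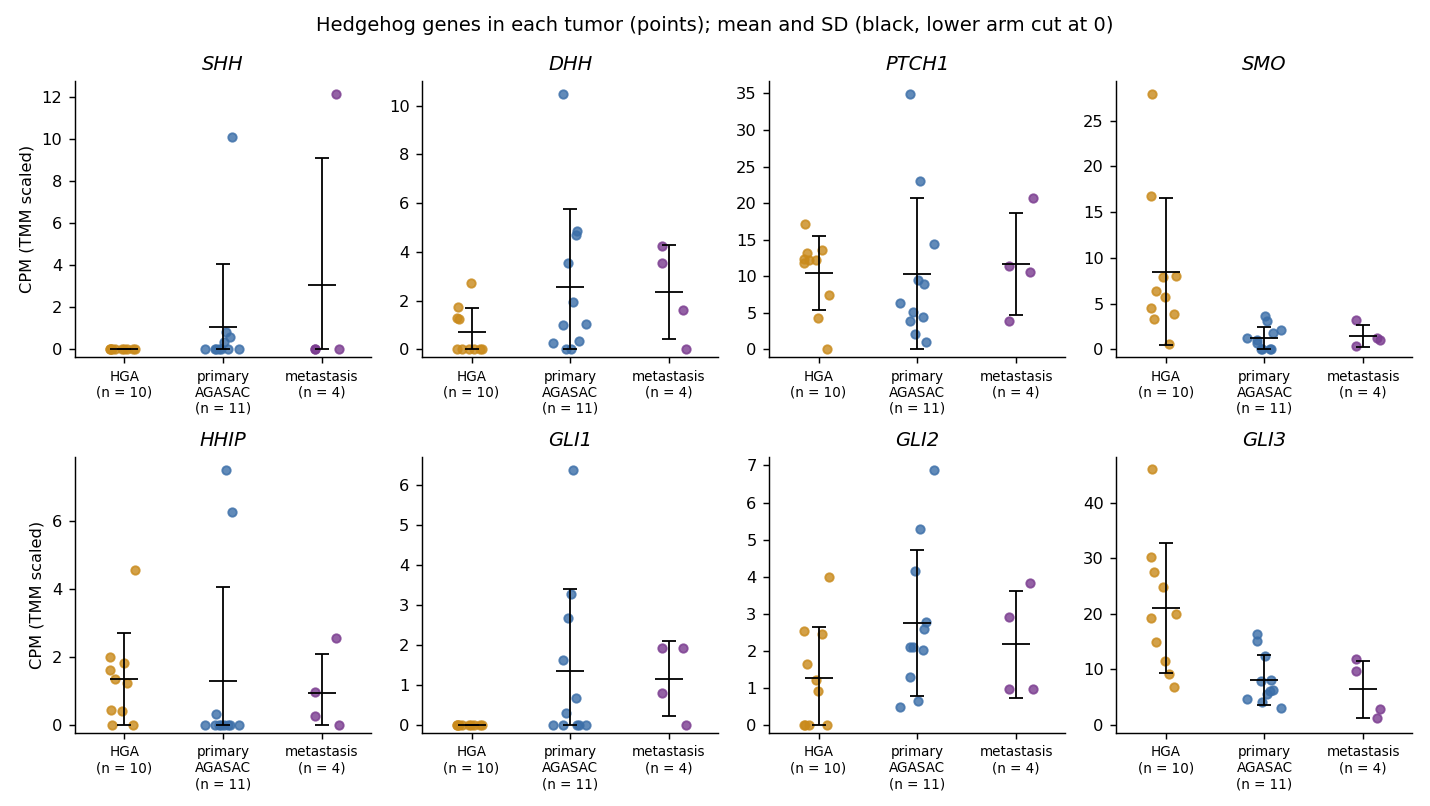
Level of each Hedgehog gene in CPM (vertical axes, each with its own range) in every tumor (points) of the 3 groups, with the group mean and SD in black. SMO and GLI3 reach their highest values in HGA, GLI1 and SHH lie at 0 in all 10 HGA, and PTCH1 spans about the same range of levels in each group apart from 2 high primary tumors.

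GLI1, the transcription factor that is made in response to Hedgehog signaling, had no read in any of the 10 HGA. In primary AGASAC it was read in 6 of 11 tumors, at 0 CPM at the lowest, 0.301 CPM at the median and 6.39 CPM at the highest. Primary tumor 4 had 23 reads, primary tumor 2 had 10, primary tumor 3 had 9 and primary tumor 10 had 5. In the metastases it was read in 3 of 4 samples, with 3, 6 and 6 reads in metastases 2 to 4. Against the limit over all HGA, GLI1 was at least 12.8-fold lower in HGA than the primary mean of 1.36 ± 2.04 CPM (SD, n = 11), and at least 8.05-fold lower without primary tumor 4. Against the metastases it was at least 10.9-fold lower, and at least 8.53-fold without metastasis 3. These bounds cover counting error only. Primary tumors 4, 3 and 2 also had the highest summed fibroblast markers of their group, at 8036, 6972 and 6935 CPM. Primary tumor 11, without a GLI1 read, had 6921 CPM, and primary tumor 10, with 5 reads, had 2729 CPM. The part of fibroblasts in the GLI1 reads was not tested. With no filter, GLI1 stayed short of the edgeR test for primary AGASAC (log2FC −5.11, SE 1.33, adjusted p = 0.0698) and for metastases (log2FC −4.84, SE 1.18, adjusted p = 0.158). Over primary AGASAC the adjusted p was 0.0557 to 0.118 with 1 library left out in turn.

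GLI2, which acts mainly as an activator once the signal is on, was read in 6 of 10 HGA and in all 11 primary tumors and 4 metastases. Its lowest, median and highest levels were 0, 1.07 and 3.99 CPM in HGA and 0.486, 2.11 and 6.89 CPM in primary AGASAC, and metastases 1 to 4 had 0.973, 2.92, 0.965 and 3.83 CPM. All 10 HGA lay below the highest primary tumor, and 3 lay above the primary median. The log2FC of −1.13 (SE 0.72) with no filter had an adjusted p of 1 (−0.95 without HGA 10), and no difference was detectable at a median of 7 reads per primary tumor.

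GLI3, whose processed form is the main repressor of Hedgehog target genes, had the most reads of the members over all libraries and was higher in HGA than in primary AGASAC. The lowest, median and highest levels were 6.79, 19.6 and 46.0 CPM in HGA and 3.101, 6.25 and 16.4 CPM in primary AGASAC, and metastases 1 to 4 had 2.92, 11.9, 9.65 and 1.28 CPM. All 10 HGA lay above the primary median and 6 above the highest primary tumor, with the lowest HGA inside the primary range. The mean was 21.02 ± 11.7 CPM (SD, n = 10) in HGA and 8.13 ± 4.503 CPM (SD, n = 11) in primary AGASAC. The log2FC was 1.40 (SE 0.34, adjusted p = 0.0162, edgeR with Benjamini-Yekutieli adjustment).

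Without HGA 10, the highest tumor for GLI3 as well, the log2FC was 1.19 (adjusted p = 0.0427), and the call held in each of the 21 filtered fits that left out 1 library. In the fits with no filter, as used for SMO, the adjusted p for GLI3 was 0.038 with all libraries, and 7 of the 21 fits that left out 1 library kept the call, while the other 14 had an adjusted p of up to 0.0937. It was 0.62, 2.31 and 1.07 within RNA extraction batches 5, 6 and 8 and 1.18 within the first set of file names, with no call in these fits of 5 to 12 libraries. With the extraction batch as a factor it was 1.301 and the call was lost (adjusted p = 0.109). With the set of file names as a factor it was 1.61 and still called (adjusted p = 0.0345). The first set held 9 HGA and 3 primary tumors, and the second held 1 HGA, HGA 10, and 7 primary tumors. Primary tumor 4, of unknown set, was left out. Set and tumor type can hardly be told apart in that fit, so it cannot back the call. With library size as the only scaling the log2FC was 1.101 and the call was lost (adjusted p = 0.0895). The median of all genes moved from −0.03 to −0.33, and GLI3 lay 1.43 above that median under both scalings. A change of scaling moves all genes about alike, so this unchanged distance cannot back the call. For HGA over metastases, which uses the same HGA, the log2FC was 1.71 (SE 0.59) and did not pass (adjusted p = 0.343), and it was 1.497 (adjusted p = 0.449) without HGA 10.

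Of the 8 members, PTCH1 and GLI3 were deep enough for the count filter in HGA versus primary AGASAC, and 1 of these 2, GLI3, was called higher in HGA, beside 25.1% of all 12070 genes called in either direction and 12.6% called higher. With no filter, 2 of the 8 members were called, both higher in HGA, beside 16.2% of 24332 genes, of which 7.85% were higher in HGA. In HGA versus metastases, 3 members were tested and none was called by edgeR, beside 16.1% of 13195 genes. Their unadjusted edgeR p was under 0.05 for SMO and GLI3 (0.00787 and 0.00963), as it was for 5431 of the 13195 genes. SMO passed the count filter there through its HGA reads, with a median of 3.5 reads in the metastases. DESeq2 called SMO alone of 6 members tested, beside 3211 of 16135 genes.

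Cell type markers that moved with the groups were counted for the same comparison. Of 9 fibroblast markers none was called, and their summed level was 1261 to 5838 CPM in HGA and 1046 to 8036 CPM in primary AGASAC. Of 6 endothelial markers 5 were tested and 2 were called higher in HGA, and their sums were 196 to 571 CPM in HGA and 52.9 to 227 CPM in primary AGASAC. The part of endothelium, basal keratinocytes and sebaceous cells in the SMO and GLI3 differences was not tested. In HGA 10, the highest tumor for SMO and GLI3, the sebaceous and endothelial sums were the lowest of all HGA, and the basal keratinocyte sum was 4557 CPM, within the range of the other HGA. Hair follicle markers summed to at most 28.3 CPM in HGA and were all at 0 in HGA 10.

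Skeletal muscle markers were found in primary tumors, at 8.75 to 859 CPM, and were highest in primary tumor 5, which had the most SHH reads of the primary tumors. In metastasis 4, with the most SHH reads of all, they summed to 2.56 CPM. In the 3 metastases with GLI1 reads their sum was at most 3.86 CPM. In HGA, without a read of SHH or GLI1, their sum was 2.28 to 24.6 CPM. The part of skeletal muscle in the SHH and GLI1 reads was not tested.

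Metastases and primary tumors of the same 4 dogs were set side by side to follow the genes with tumor spread. Dog 4 stood out. Its primary tumor and its metastasis both carried reads of SHH (3 and 38), HHIP (27 and 8) and GLI1 (23 and 6), and no other dog had reads of the 3 genes in both samples. Dog 1 had 1 GLI1 read in the primary tumor and none of the 3 genes in the metastasis. Dogs 2 and 3 carried GLI1 in both samples, with 10 and 3 reads in dog 2 and 9 and 6 reads in dog 3, and no SHH read in the metastasis.

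The GLI1 value was lower in the metastasis in 4 of 4 dogs, at 0.301 and 0 CPM, 3.27 and 0.796 CPM, 2.67 and 1.93 CPM, and 6.39 and 1.92 CPM in the primary tumor and metastasis of dogs 1 to 4. In dog 1 this was 1 read against none, which does not resolve a direction. Lymphocyte markers moved as well. The sum of 6 T cell markers was 25.0 and 39.9, 28.4 and 44.3, 21.1 and 63.0, and 41.4 and 44.4 CPM in the primary tumor and metastasis of dogs 1 to 4, and that of 7 B cell markers was also higher in each metastasis, while none of the 6 T cell and 3 B cell markers that were tested was called. The summed fibroblast markers were 1046 and 760, 6935 and 13101, 6972 and 1369, and 8036 and 3049 CPM in the same order, lower in the metastasis except in dog 2. The part of lymphocytes and fibroblasts in the GLI1 values was not tested. For GLI1 itself, no difference between metastasis and primary tumor was called. Its log2FC of −1.43 (SE 1.06) with no filter did not pass the test (adjusted p = 1), nor did that of −1.47 with the dog as a block. PTCH1 was higher in the metastasis in 3 of 4 dogs and went from 23.1 to 10.5 CPM in dog 4, with a log2FC of 0.20 (SE 0.72), or 0.44 (SE 0.53) with the dog as a block. GLI2 and GLI3 were each higher in 1 of 4 metastases, with log2FC values of −0.48 (SE 0.72) and −0.20 (SE 0.67), or −0.44 and −0.45 with the block. All 3 had an adjusted p of 1. Beside them, 0 of 12629 genes (0.0%) were called by edgeR without the block and 1 with it, 145 had an unadjusted p under 0.05 and DESeq2 called 5.

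**Figure D3:**
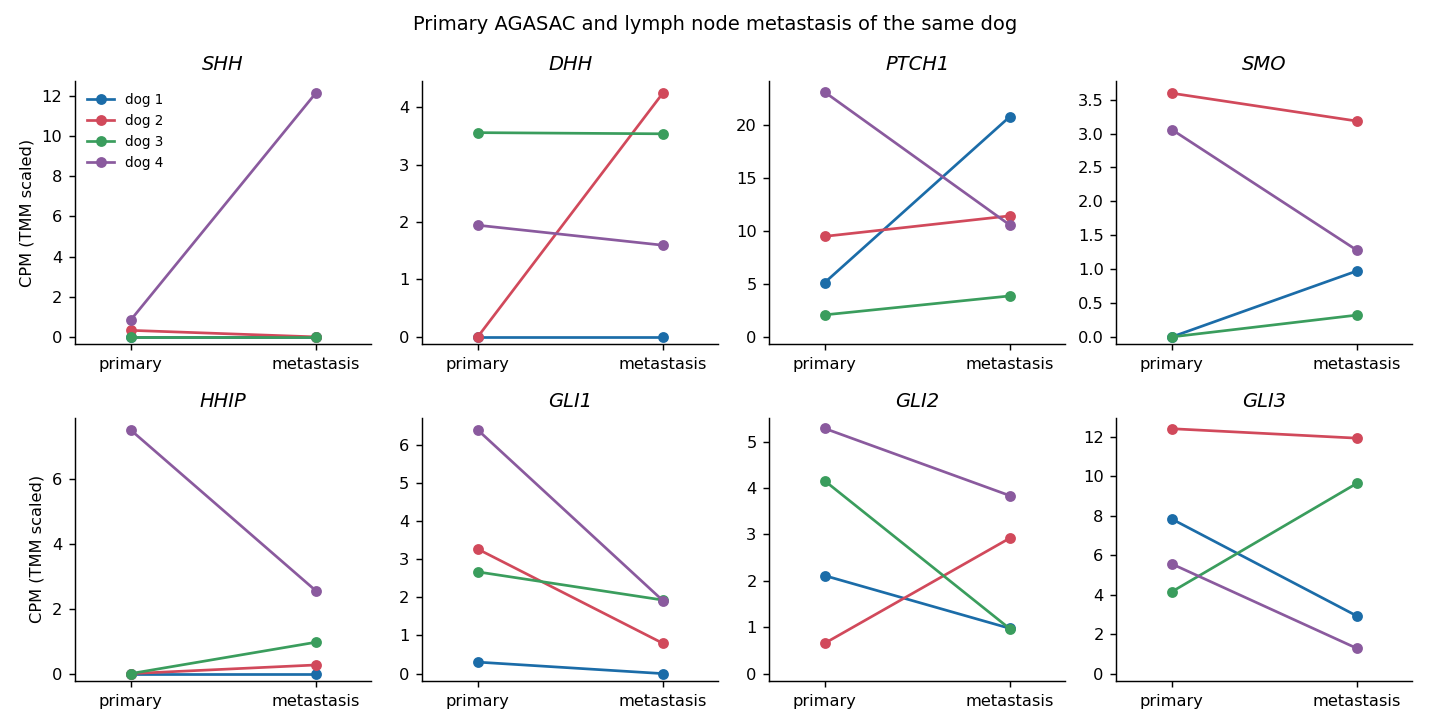
Level of each Hedgehog gene in CPM (vertical axes) in the primary AGASAC and the lymph node metastasis of the same dog, joined by a line for each of 4 dogs. The GLI1 value is lower in the metastasis of every dog (in dog 1 by 1 read), and dog 4 has the highest GLI1 and HHIP in its primary tumor and the only SHH level above 1 CPM, in its metastasis.

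PTCH1, GLI1 and HHIP are often read as a group of signal-dependent genes, so their levels were correlated within each tumor type on a log2(CPM + 1) scale. Of 6 relations 4 had a value, since GLI1 was constant in HGA. In primary AGASAC (n = 11) Pearson's r was 0.08 for PTCH1 and GLI1 (permutation p = 0.812), −0.08 for PTCH1 and HHIP (p = 0.807 by permutation) and 0.33 for GLI1 and HHIP (p = 0.38 by permutation). Spearman's rho was −0.04, −0.17 and 0.30 (permutation p = 0.922, 0.611 and 0.365). In HGA (n = 10) PTCH1 and HHIP had an r of 0.23 (permutation p = 0.526) and a rho of −0.23 (permutation p = 0.517). After Benjamini-Hochberg adjustment over the 4 relations, each p was at least 0.812 for r and at least 0.815 for rho. Without the 2 tumors farthest from the median of the first gene, r was 0.15, 0.62 and −0.19 in primary AGASAC and −0.77 in HGA, so 3 of the 4 values changed sign and no relation among these genes was shown. HHIP was read in only 3 and GLI1 in 6 of the 11 primary tumors, so these correlations could hardly show one.

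Other genes of the pathway were taken from 5 lists by role, 65 genes in all, each with a row. In HGA versus primary AGASAC 47 of them were tested, 7 were called higher and 8 lower in HGA, which is 15 of 47, beside 25.1% of all genes. In HGA versus metastases 49 were tested, 4 were higher and 5 lower, beside 16.1% of all genes. Without HGA 10 the counts were 6 and 8 for primary AGASAC and 6 and 5 for metastases. None of the called genes named below changed direction under any alternative, and most of their calls were lost in the small fits within single extraction batches. The median log2FC of all genes tested was −0.03 and 0.02 in the comparisons with primary AGASAC and metastases.

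The coreceptors, which present ligand to PTCH1, included 2 of 4 tested genes that were higher in HGA and none that was lower, with a median log2FC of 1.27. Over all genes tested, 25.1% were called in either direction and 12.6% were higher in HGA. The 4 tested coreceptors are too few to set against those shares. BOC had 11.0 to 59.6 CPM in HGA, 0 to 14.7 CPM in primary AGASAC and 0.322 to 2.39 CPM in metastases. Its log2FC was 2.82 (SE 0.63, adjusted p = 0.00757) over primary AGASAC and 3.92 (SE 0.67, adjusted p = 0.00305) over metastases, and 2.89 and 3.97 without HGA 10. CDON had 19.96 to 124 CPM in HGA and 9.64 to 46.2 CPM in primary AGASAC, with a log2FC of 1.38 (SE 0.33, adjusted p = 0.0124). Without HGA 10, its highest tumor, that was 1.21 (adjusted p = 0.0303), and with library size as the only scaling it was 1.08 and the call was lost (adjusted p = 0.0884). BOC in HGA did not overlap the metastases. Of the 3 tested genes for ligand acylation and release (HHAT, DISP1 and SCUBE2), none was called and the median log2FC was 0.15.

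Of 17 regulators of the GLI proteins 1 was higher and 4 were lower in HGA, which together is close to the 25.1% of all genes called, with a median log2FC of −0.28. SPOP, an adaptor of the ubiquitin ligase that marks GLI2 and GLI3 for degradation, had 70.1 to 245 CPM in HGA and 43.4 to 91.7 CPM in AGASAC, with a log2FC of 1.31 (SE 0.20, adjusted p = 8.94e-05) over primary AGASAC and 1.33 without HGA 10, and the call was lost within the first set of file names (adjusted p = 0.148). PRKACB, a catalytic subunit of protein kinase A, which phosphorylates GLI proteins for processing, had 0.615 to 17.2 CPM in HGA and 12.6 to 224 CPM in AGASAC, with a log2FC of −3.19 (SE 0.52) over primary AGASAC and −4.00 (SE 0.47) over metastases (adjusted p = 0.000243 and 9.67e-05), and −3.40 and −4.21 without HGA 10. CSNK1E, a casein kinase, had a log2FC of −1.34 (SE 0.22) over primary AGASAC and −1.31 (SE 0.30) over metastases, with adjusted p-values of 0.000223 and 0.0303. Without HGA 10, its highest HGA, these were −1.55 and −1.53, both called. The call over metastases was lost without HGA 1, 3 or 6 and without any 1 of the 4 metastases.

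Of 15 tested genes of the primary cilium, the organelle in which SMO and the GLI proteins meet, 3 were called lower in HGA and none higher. Their median log2FC was −0.35. Of all 12070 genes tested, 25.1% were called in either direction and 1509 were lower in HGA. The 15 tested cilium genes are too few to set against those shares. TULP3, named here after its values were seen, had an adjusted p of 0.0026 and a log2FC of 0.86, short of the limit of 1. IFT80, a subunit of the transport trains within the cilium, had 0 to 7.68 CPM in HGA and 9.75 to 38.5 CPM in AGASAC, without overlap. Its log2FC was −2.26 (SE 0.36, adjusted p = 0.000166) over primary AGASAC and −2.38 (SE 0.51, adjusted p = 0.0185) over metastases, and the latter call was lost without metastasis 1 or metastasis 2. Without HGA 10 the values were −2.33 and −2.45. BBS4, a subunit of the BBSome, had 4.92 to 28.5 CPM in HGA and 24.3 to 65.0 CPM in AGASAC, with a log2FC of −1.295 (SE 0.24, adjusted p = 0.00121) over primary AGASAC and −1.38 without HGA 10. That call was lost with the set of file names as a factor (−0.96, adjusted p = 0.139) and within the first set (−1.02, adjusted p = 0.527).

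Of 20 genes listed as GLI targets in various tissues, 8 were tested, 4 were higher and 1 was lower in HGA, with a median log2FC of 0.98. Over all genes tested, 25.1% were called in either direction and 12.6% were higher in HGA. The 8 tested targets are too few to set against those shares. The 2 cyclins went opposite ways. CCND2 had 10.5 to 540 CPM in HGA and 6.32 to 34.5 CPM in AGASAC, with a log2FC of 3.66 (SE 0.42) over primary AGASAC, and CCND1 had 24.8 to 98.04 CPM in HGA and 121 to 1494 CPM in AGASAC, with a log2FC of −3.38 (SE 0.37). Their adjusted p-values were 1.66e-06 and 9.41e-07. JAG2, a Notch ligand, had 199 to 1064 CPM in HGA and 0.860 to 95.8 CPM in AGASAC. The ranges did not overlap, and the log2FC was 4.04 (SE 0.50, adjusted p = 5.2e-06). SOX9, a transcription factor of hair follicle and sebaceous progenitors, had 14.6 to 99.1 CPM in HGA and 0 to 22.4 CPM in AGASAC, with a log2FC of 4.61 (SE 0.65, adjusted p = 0.000518) over metastases. Without HGA 10, the log2FC over primary AGASAC was 3.29 for CCND2, 3.69 for JAG2 and −3.297 for CCND1, and SOX9 over metastases was 4.73, all still called. As background, these genes also answer to many other pathways.

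**Figure D4:**
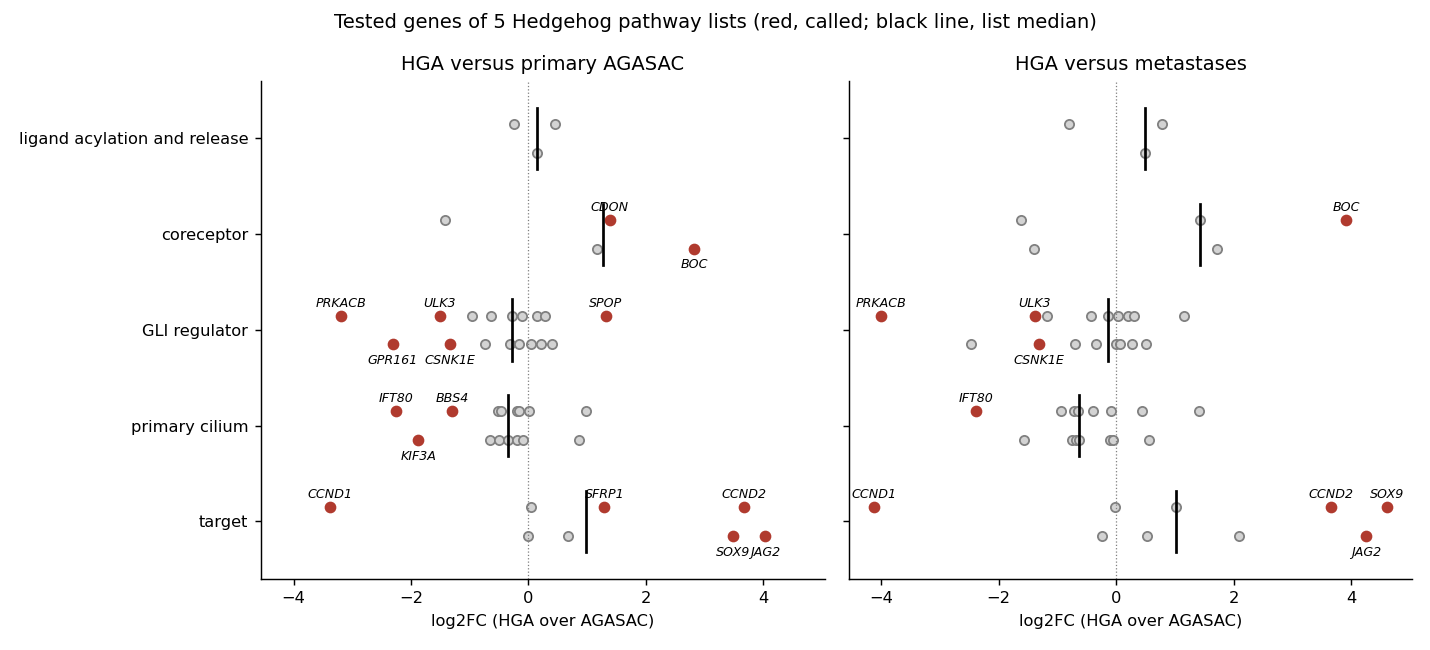
log2FC of HGA over primary AGASAC (left) and over metastases (right) on the horizontal axes for the tested genes of 5 pathway lists (rows), with called genes in red and named, other genes in grey and the list median as a black line. The coreceptors and targets have medians above 0, and the GLI regulators and cilium genes have medians below 0 with members on both sides of it.

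The genes whose levels followed PTCH1 and GLI3 most closely within the groups were sought over the 21 primary tumors, as deviations from each group mean on the log2(CPM + 1) scale. For PTCH1 they were CTDSPL2 (r = 0.82), TFDP1 (r = 0.80) and WTAP (r = 0.76), and for GLI3 they were DCAF10 (r = 0.79), USP15 (r = 0.74) and NUAK2 (r = 0.74). All genes in this ranking share the same libraries and their depth, and none of these 6 genes is a member or on the pathway lists. SMO, the other member that was higher in HGA, had too few reads for this ranking.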

How the data were processed

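The authors trimmed the QuantSeq 3′ reads with Cutadapt, aligned them to CanFam3.1 (RefSeq) with STAR and deposited whole-number counts per gene from 2 rounds of featureCounts, the second with genes extended by 2 kb at the 3′ end. Tool versions are not given in the sources used here. Multi-mapped reads were shared evenly over their locations, and whether counting used the strand is not given, so reads of overlapping or antisense genes may be included in a member's count. The authors also deposited size-factor scaled signal columns and a DESeq2 comparison with log2 fold changes and p-values, none of which were used.

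From the counts, edgeR 4.0.16 (R 4.3.3) fitted its quasi-likelihood test on genes passing filterByExpr (minimum count 10, minimum total 15), with TMM scaling and Benjamini-Yekutieli adjustment over all genes tested. A gene was called at an adjusted p of at most 0.05 and an absolute log2FC of at least 1, the limits of the study. Members below the filter were read from the fit with no filter. The SE of a log2FC was worked back from the test, as the absolute log2FC divided by the square root of its F statistic. For SHH and GLI1, without a read in HGA, the size of the fitted log2FC is not a measured ratio, nor is its SE a measured error. HGA was compared with primary AGASAC and with the metastases, and each of the 4 metastases was set against the primary tumor from its own dog. DESeq2 1.42.0 and other scalings, filters and covariates were tried as alternatives, among them the RNA extraction batch (6 batches) and the 2 sets of sequencing file names, from the study's sample lists. The scripts were tested on simulated counts.

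The members, gene lists and tests were chosen with earlier results of these data known. The named genes were the members, the called genes with the 2 lowest adjusted p-values in each direction per list and comparison, and the 3 genes most like each member with a median of at least 10 counts. Metastases and primary tumors with the same number come from the same dog, and their deviations from the group means correlated at 0.422 to 0.699 over genes. Correlation p-values came from 100000 permutations and are two-sided. No genome or sequence table of the build was used, so no sequence or coordinate is given.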

Additional observations from a re-analysis of the deposited data

Results flagged for a closer look

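A test for a sample far from the rest of its group was run on the members and the named pathway genes in HGA and in the metastases. The test set the gap to the nearest sample against the range of the group in CPM, and it marked 6 of 36 groups of values. A chance rate of about 1 in 20 applies to normally distributed values, not to skewed CPM with many zeros. The number marked therefore cannot be read as an excess over chance. SHH was at 12.1 CPM in metastasis 4, with the other 3 metastases at 0. HHIP was at 4.56 CPM in HGA 3, with 1.99 CPM in the next highest HGA. HGA 10 was marked for 3 pathway genes, with 540 CPM of CCND2 (next highest HGA 207 CPM), 58.5 CPM of CSNK1E (31.97 CPM) and 1064 CPM of JAG2 (364 CPM). It was also the highest HGA for SMO, GLI3, PTCH1 and CDON and the lowest for the summed sebaceous gland markers. BOC was at 59.6 CPM in HGA 4, with 25.5 CPM in the next highest HGA. HGA 4 had the smallest library, with 1562347 counts.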

How the results depend on the processing

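In HGA versus primary AGASAC 3032 genes were called (2828 to 3373 with 1 library left out in turn), 1452 with at least 10 counts in every sample, 2009 with the set of file names as a factor, and 262, 637 and 338 within extraction batches 5, 6 and 8. With library size alone, 1053 calls were higher and 2156 lower in HGA, against 1523 and 1509 with TMM. Of the members, 1 was called in that comparison (1 to 2 with 1 library left out in turn). The number was 2 with no filter (beside 3951 of 24332 genes), with DESeq2 (4508 of 17219) and with all 15 AGASAC samples (3496 of 12764). These 15 samples come from 11 dogs and were fitted as if independent. It was 0 with library size alone, the extraction batch as a factor, the first set of file names, each single batch and the replicate block. With at least 10 counts in every sample no member was left to test. With no filter it was 2 (0 to 2 with 1 library left out). It was 4 with Benjamini-Hochberg adjustment, beside 7124 of 24332 genes called. There SHH and GLI1 were also called, both lower in HGA (edgeR adjusted p = 0.0179 and 0.00653). Of the 35 SHH reads in primary AGASAC, 29 were in primary tumor 5. The unfiltered number was 1 with the set of file names as a factor, beside 2444 of 24220 genes. It was 0 with library size alone, the RNA quality value DV200 or the extraction batch as a term, within batches or the first set of file names, and with the replicate block. The unfiltered alternatives were chosen after seeing the data, as were those for the metastases with the block and no filter. Of the 29 member values that lost their call, 22 were of SMO and 7 of GLI3, and neither gene changed direction in HGA versus primary AGASAC. These values come from overlapping sets of libraries and are not independent.

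HGA and primary AGASAC share only replicate numbers, with correlations of −0.05 to 0.03, so the replicate block there is no pairing (2622 genes called, and GLI3 at 1.31 with an adjusted p of 0.12). In HGA versus metastases 2124 genes were called (1543 to 2588 with 1 library left out), 1153 with the strict filter, 3211 with DESeq2, 3536 with Benjamini-Hochberg adjustment and 762 with the replicate block. Members called were 0 (0 to 0 with 1 library left out), 1 with DESeq2 and 2 with Benjamini-Hochberg adjustment. Between metastases and primary tumors, which are paired by dog, 0 genes were called without the block (0 to 0 with 1 library left out), 5 with DESeq2, 1 with the replicate block, 5 with the block and DESeq2 and 9 with the block and no filter, and no member was called in any of them, so the block changed no call of a member.

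Values that changed sign were near 0 or rested on few reads, and none was called. PTCH1 (HGA over primary AGASAC) was −0.0047 with RLE scaling, −0.0042 with DESeq2, −0.00048 with all 15 AGASAC samples, −0.28 with library size alone, −0.018 with no filter, −0.12 with DV200, −0.17 with the batch factor, −0.78 and −0.60 within batches 5 and 6, and −0.10 to 0.42 with 1 library left out. PTCH1 over metastases was 0.14 with the replicate block and −0.42 to 0.28 with 1 library left out. In metastases over primary tumors PTCH1 was −0.21 to 1.07 and GLI3 −0.70 to 0.16 with 1 library left out. DHH was 3.26 within batch 8. HHIP was 0.029 with DESeq2, 0.022 with RLE scaling, 0.27 with the batch factor, 3.42 with the set of file names as a factor, 5.13 within the first set, 3.19 within batch 5, 1.97 with the replicate block and −0.40 to 0.99 with 1 library left out. With the dog block, SMO was 0.75 (DESeq2) and 0.37 (no filter) and HHIP was 1.06 and 0.42 in metastases over primary tumors. The correlations over all tumors of a group kept their sign and missed the threshold with a pseudocount of 0.5 and with library size alone. Without the 2 farthest tumors, r in primary AGASAC turned negative with library size alone, at −0.67 for PTCH1 and HHIP and −0.14 for PTCH1 and GLI1. The cause of these changes was not tested. At these depths SHH, DHH, GLI1, GLI2 and HHIP had medians of at most 7 reads in any group of tumors but DHH in metastases (8 reads), which limits what any fit could show for them.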
